A study of Mus musculus with 6 samples.

Results

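The 10 genes described here encode the inflammasome sensor NLRP3, proteins that act directly upstream of it, caspase-11 of the non-canonical pathway, caspase-8, and the proteins that perforate and rupture the plasma membrane during pyroptosis. They were Nlrp3, Nek7, Txnip, P2rx7, Panx1, Casp4, Casp8, Gsdmd, Gsdme and Ninj1. The genes were picked by symbol and by what their products are known to do, and all 10 were found among the 32285 genes listed in the files. Single-cell RNA sequencing had been performed on the injured rotator cuff enthesis, where tendon inserts into bone, at 7 days post-injury (dpi). There were 3 libraries from wild-type controls (C57BL/6) and 3 from Nlrp3 knockout mice (Nlrp3-/-), and every animal had undergone the same injury and repair of the cuff. The knockout line came from a commercial supplier, how many animals contributed to a library is not given in the sources used here, and p-values therefore measure the spread between libraries only. In addition, the genotype field of 2 of the knockout libraries names Nlrp4 and Nlrp5, so the groups follow the sample titles, which name Nlrp3.

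Pyroptosis is a lytic form of cell death. In the canonical route, a sensor such as NLRP3 assembles with the adaptor ASC and activates caspase-1, which matures interleukin-1β and interleukin-18 and cleaves gasdermin D, whose N-terminal part forms pores in the plasma membrane. In the non-canonical route, caspase-11, the product of mouse Casp4, binds cytosolic lipopolysaccharide and cleaves gasdermin D without a sensor, and the potassium that leaves through the pores can then activate NLRP3. NINJ1 acts after the pore and drives the final rupture of the membrane. In an injured joint, neutrophils and macrophages are the best known sources of inflammasome products.

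For orientation, positions on mouse build GRCm38 (GENCODE annotation) were chr11:59541568-59566956 for Nlrp3 (ENSMUSG00000032691, plus strand), chr1:138482875-138620141 for Nek7 (ENSMUSG00000026393, minus strand), chr3:96557957-96561883 for Txnip (ENSMUSG00000038393, plus strand), chr5:122643911-122691432 for P2rx7 (ENSMUSG00000029468, plus strand), chr9:15002128-15045478 for Panx1 (ENSMUSG00000031934, minus strand), chr9:5308828-5336783 for Casp4 (ENSMUSG00000033538, plus strand), chr1:58795374-58847503 for Casp8 (ENSMUSG00000026029, plus strand), chr15:75862327-75867408 for Gsdmd (ENSMUSG00000022575, plus strand), chr6:50188888-50263862 for Gsdme (ENSMUSG00000029821, minus strand) and chr13:49187485-49196244 for Ninj1 (ENSMUSG00000037966, plus strand). All of them are protein-coding genes. The 250 bases before the annotated start were available from RefSeq (GRCm38.p6) for 9 of the 10 genes. A set of 6 letter patterns was looked for on both strands.

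A single window each is shown for Casp4, Txnip and Nlrp3, because Nlrp3 is the gene removed in the knockout and because Casp4 and Txnip held the rarest of the patterns and differed strongly between cell types. Each runs 5′ to 3′ toward the gene, with matched letters in capitals. In Casp4 the capitals mark the kappa B form on either strand (GGG and TTTCC separated by any 2 bases), which was present in 1.41% of 32851 windows of this length, and in Txnip a pair of E-box forms (CACGNG, with N for any base, repeated after 5 further bases), present in 0.0457%.
Casp4, chr9:5308599-5308848, plus strand: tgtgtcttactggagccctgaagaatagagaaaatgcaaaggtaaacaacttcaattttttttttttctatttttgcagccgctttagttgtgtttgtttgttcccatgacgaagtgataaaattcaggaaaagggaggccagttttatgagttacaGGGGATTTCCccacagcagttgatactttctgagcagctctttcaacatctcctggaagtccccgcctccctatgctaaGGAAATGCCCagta
Txnip, chr3:96557707-96557956, plus strand: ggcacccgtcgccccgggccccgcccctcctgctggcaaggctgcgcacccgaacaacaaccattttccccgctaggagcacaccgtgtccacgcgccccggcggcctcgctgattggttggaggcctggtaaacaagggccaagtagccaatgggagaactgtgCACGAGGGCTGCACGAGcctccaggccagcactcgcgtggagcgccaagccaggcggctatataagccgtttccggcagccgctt
Nlrp3, chr11:59541319-59541568, plus strand: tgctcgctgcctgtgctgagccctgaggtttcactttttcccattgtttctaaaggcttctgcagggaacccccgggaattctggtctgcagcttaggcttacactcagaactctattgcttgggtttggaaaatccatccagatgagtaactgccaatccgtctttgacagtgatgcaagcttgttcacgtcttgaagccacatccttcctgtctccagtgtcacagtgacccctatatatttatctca
The first matched base lay 93 and 14 bases before the start of Casp4 and 85 bases before that of Txnip, counted from the RefSeq start, which for Casp4 lies downstream of the GENCODE start given above. RefSeq gave a pair of windows each for Casp4 and Nlrp3. Neither form occurred in either window of Nlrp3, nor did the interferon response form of GAAA repeated after 2 bases (2.98% of windows) occur in any of the 3 shown. The other patterns searched were common ones, TATAAA (12.4%), CCAAT (33.8%) and GAGGAA (23.3%), and are not capitalised. CCAAT, read on either strand, occurred at 2 positions in the Txnip window and at 1 in that of Nlrp3, and none of these overlapped a capitalised stretch. GAGGAA occurred in none of the 3 shown, but at 3 positions in the other window of Nlrp3, chr11:59542436-59542685. A match is a description of letters, not of a bound site, and a missing match says nothing about a factor.

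The libraries held 97042713 to 134901999 unique molecular identifiers (UMIs). In all, 80351 cells were called, and 9654 of them lay in clusters that came almost wholly from 1 library and were set aside, mainly 9461 of the 20507 cells of knockout replicate 1, whose median depth of 1795 UMIs per cell was below the 3830.5 to 6702 of the other 5. Between 26 and 91 cell barcodes were shared by any pair of libraries. The remaining 70697 cells were named from marker lists, with 3465 left unnamed, and 10 types had enough cells in each library to be compared. For every type, all of its markers lay above the median type. The 10 genes and their pathway partners were kept out of the clustering. Genotype cannot be told apart from the sex of the animals, because Xist stood at 784 to 931 counts per 1000000 UMIs (CPM) in the knockout libraries and at most 0.102 in the wild type, while Ddx3y, on the Y chromosome, reached 39.9 to 57.6 CPM in the wild type and 0 in the knockout. UMIs were summed per library and cell type, and a level is given below as CPM of that type, with n = 3 libraries behind each mean ± SD. Such a level is a share of the RNA of a type, not a count per cell. In wild-type replicate 1, 4887 neutrophils held 17169790 UMIs and 1162 mesenchymal cells 20363651. An order per cell can therefore differ. Over the wild-type libraries, 12514 neutrophils held 13234 Txnip UMIs and 1126 endothelial cells 4049. The same neutrophils held 1197 Gsdmd UMIs and 5059 mesenchymal cells 1453.

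In wild-type mice the 10 genes did not share 1 leading cell type. By mean CPM, Nlrp3, Txnip and Gsdme were highest in neutrophils, while P2rx7, Casp4, Gsdmd and Ninj1 were highest in macrophages. Casp8 was highest in endothelial cells, Nek7 in T and NK cells and Panx1 in plasmacytoid dendritic cells. Between macrophages, neutrophils and mesenchymal cells, the most common types, 25 of 30 tests of these genes passed an adjusted p of 0.05 (edgeR, Benjamini-Hochberg over all genes). Types of cells differ in most genes, however. The background was 71.5% of all genes tested between macrophages and mesenchymal cells, 68.8% between macrophages and neutrophils and 82.5% between neutrophils and mesenchymal cells. Over all 45 pairs of types, 299 of 450 tests were called (66.4%), against 56.6% of all genes. The calls rest on TMM factors, which centre the bulk of the genes. When library totals were used in their place, an alternative chosen after seeing the data, the median log2 fold change of all genes went from -0.04 to 0.88 for macrophages minus neutrophils and from -0.23 to -1.17 for neutrophils minus mesenchymal cells. The share of called genes that were higher in the first type went from 49.2% to 79.8% and from 44.6% to 25.0%. All 25 called tests of the 10 genes kept their call and direction, and 4 more were called, which are named below with their genes. CPM levels follow library totals and fold changes follow TMM, and pairs of types other than these 3 were tested with TMM only.

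**Figure D1:**
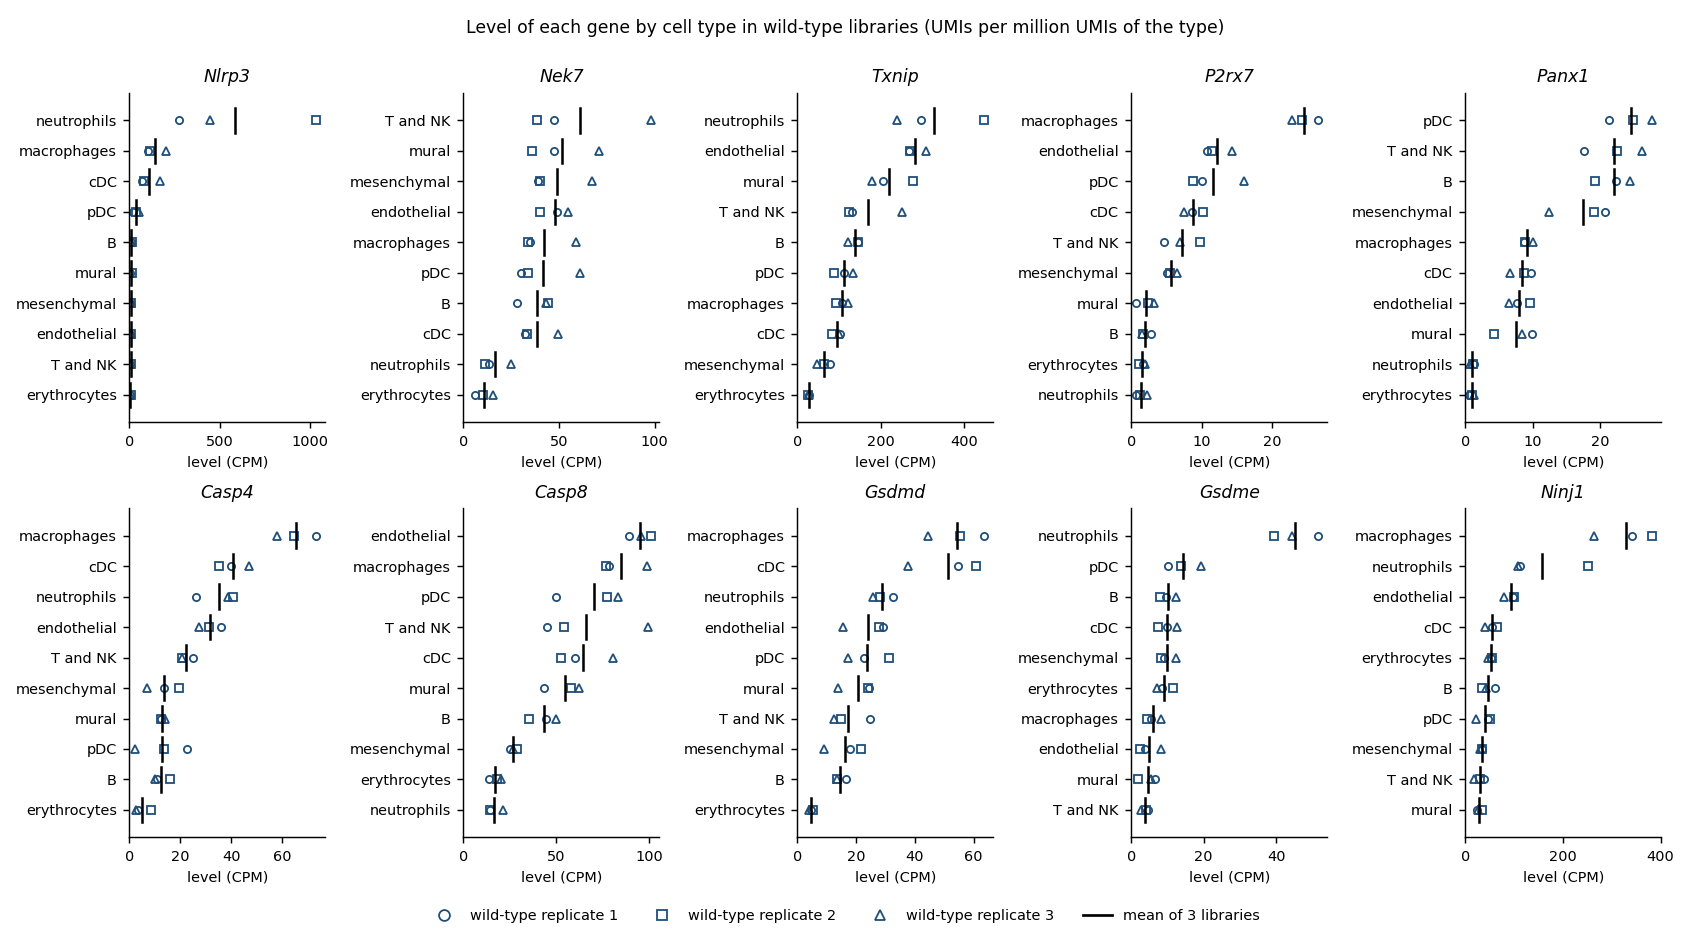
Level of each gene (x axis, CPM, linear, 1 scale per panel) in 10 cell types of wild-type mice (y axis, from the highest to the lowest mean, with cDC and pDC for conventional and plasmacytoid dendritic cells); each symbol is 1 of the 3 libraries and the black bar is their mean. Nlrp3 in neutrophils spreads from 274 to 1035 CPM, above every library of every other type shown.

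Nlrp3, the sensor, was concentrated in myeloid cells. Its level in neutrophils was 274, 1035 and 446 CPM in wild-type replicates 1, 2 and 3, against 103, 112 and 205 in macrophages and 72.0, 77.9 and 172 in conventional dendritic cells. The neutrophil libraries differed among themselves by more CPM than those of any other type compared, yet the lowest of them still lay above the highest of the macrophages. Neutrophils differed from each of the other 9 types, including macrophages (log2 fold change -2.88 ± 0.29 SE, adjusted p = 1.62e-09, macrophages minus neutrophils) and mesenchymal cells (log2 fold change 7.43 ± 0.36 SE, adjusted p = 1.88e-16). Plasmacytoid dendritic cells stood at 35.3 ± 16.7 CPM, and the 6 lymphoid, stromal, vascular and erythroid types lay at 5.51 to 8.73. Free RNA in barcodes of at most 100 UMIs carried Nlrp3 at 93.6, 174 and 165 CPM, so levels in plasmacytoid dendritic cells and those 6 types were below that of the free RNA of the same libraries, and Nlrp3 in the 6 types cannot be told from background. If free RNA keeps 1 ratio of its genes in every type, these Nlrp3 levels limit it to at most 8.45% of the UMIs of the 6 types in any wild-type library, and to at most 4.09%, 5.05% and 3.61% in mesenchymal cells. Conventional dendritic cells lay below it in 2 of the 3 libraries and macrophages in 1.

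NEK7 is the kinase that binds NLRP3 and bridges its subunits. Nek7 was broadly expressed, with 47.1, 38.3 and 97.8 CPM in T and NK cells, 38.8, 40.2 and 67.2 in mesenchymal cells and 34.7, 33.6 and 58.7 in macrophages. Wild-type replicate 3 was the highest of the 3 in each of these types. The gene was low in neutrophils (13.1, 11.4 and 24.9 CPM) and erythrocytes (10.8 ± 4.63 CPM), whose levels did not overlap those of macrophages. Macrophages exceeded neutrophils (log2 fold change 0.45 ± 0.15 SE, adjusted p = 0.0124, not called without wild-type replicate 1), and neutrophils lay below mesenchymal cells (log2 fold change -0.65 ± 0.15 SE, adjusted p = 4.07e-04), whereas macrophages and mesenchymal cells were not separated (log2 fold change -0.20 ± 0.15 SE, adjusted p = 0.226). T and NK cells at the top of the order were not separated from 5 other types, namely endothelial, mural and mesenchymal cells, macrophages and conventional dendritic cells. Neutrophils thus ranked first of the 10 types for Nlrp3 and next to last for Nek7.

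Thioredoxin-interacting protein, encoded by Txnip, binds thioredoxin and restrains glucose uptake, and it has been described as a partner of NLRP3 under oxidative stress. Its level in neutrophils was 297, 449 and 239 CPM. Endothelial cells came next at 269, 269.5 and 309 CPM and mural cells at 205, 277 and 179. These ranges overlapped on the CPM scale, but neutrophils differed from all 9 other types in the fit, against macrophages by log2 fold change -2.56 ± 0.22 SE, adjusted p = 9.52e-11, and against mesenchymal cells by log2 fold change 3.33 ± 0.23 SE, adjusted p = 3.30e-13. Macrophages, at 107 ± 14.6 CPM, lay above mesenchymal cells (log2 fold change 0.78 ± 0.21 SE, adjusted p = 0.00212). Free RNA of the same libraries held Txnip at 134, 152 and 127 CPM. At the limit that Nlrp3 set, it could bring at most 5.50, 7.68 and 4.56 CPM of Txnip to mesenchymal cells, which held 79.1, 64.4 and 47.0. Erythrocytes were lowest at 27.8 ± 1.36 CPM.

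P2X7, the receptor through which extracellular ATP opens a cation pore and lets potassium leave the cell, was a macrophage transcript here. P2rx7 stood at 26.6, 24.3 and 22.9 CPM in macrophages, a tight group, and at 10.8, 11.5 and 14.4 in endothelial cells. Neutrophils, which held the most Nlrp3, carried 0.699, 1.28 and 2.24 CPM. The macrophage values were thus above every library of every other type compared, and macrophages differed from all 9 of them, including mesenchymal cells (log2 fold change 2.14 ± 0.19 SE, adjusted p = 6.66e-11) and neutrophils (log2 fold change 3.27 ± 0.24 SE, adjusted p = 2.28e-12). Neutrophils also lay below mesenchymal cells (log2 fold change -1.13 ± 0.25 SE, adjusted p = 1.93e-04), a call that did not hold with doublets kept, where the fitted value was 0.14.

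PANX1 forms the channel through which cells release ATP. Panx1 was a low transcript with a lymphoid and mesenchymal pattern: 21.3, 24.9 and 27.7 CPM in plasmacytoid dendritic cells, 17.7, 22.6 and 26.2 in T and NK cells, 22.3, 19.3 and 24.4 in B cells and 20.8, 19.1 and 12.4 in mesenchymal cells. The first 3 of these overlapped, mesenchymal cells lay below every library of the plasmacytoid dendritic cells, and none was separated from the highest in the fit. Macrophages, at 8.67, 8.93 and 10.0 CPM, lay below mesenchymal cells (log2 fold change -0.90 ± 0.17 SE, adjusted p = 3.65e-05), and neutrophils, at 1.22, 1.20 and 0.746 CPM, lay further below (log2 fold change -3.05 ± 0.23 SE, adjusted p = 2.48e-12). The receptor and the release channel therefore had different highest types, although both were close to 0 in neutrophils.

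Casp4, which encodes caspase-11, had its highest mean levels in myeloid types. It reached 73.3, 64.6 and 57.8 CPM in macrophages, 39.8, 35.0 and 46.9 in conventional dendritic cells and 26, 40.8 and 38.5 in neutrophils. Endothelial cells followed at 31.5 ± 4.41 CPM and overlapped neutrophils on this scale, although the fit placed neutrophils higher (log2 fold change 1.34 ± 0.24 SE, adjusted p = 1.65e-05). Every macrophage library lay above every library of the other 9 types on the CPM scale. Mesenchymal cells held 13.4, 19.6 and 7.07 CPM, below both macrophages (log2 fold change 2.34 ± 0.23 SE, adjusted p = 6.57e-10) and neutrophils (log2 fold change 2.39 ± 0.23 SE, adjusted p = 4.11e-10). Macrophages were not separated from neutrophils in the fit (log2 fold change -0.05 ± 0.22 SE, adjusted p = 0.865), a result that turned into a call with library totals (log2 fold change 0.89 ± 0.23 SE, adjusted p = 0.00122) and with Leiden resolution 2.0 (0.54, adjusted p = 0.0214), or from conventional dendritic cells. On the CPM scale conventional dendritic cells ranked above neutrophils, whereas the TMM fit called them lower (log2 fold change -0.66 ± 0.26 SE, adjusted p = 0.0326, conventional dendritic cells minus neutrophils). Casp8 encodes the initiator caspase of death receptors, which blocks necroptosis and can also cleave gasdermin D. It was spread over endothelial cells (89.0, 101 and 95.6 CPM), macrophages (78.6, 76.6 and 98.8) and plasmacytoid dendritic cells (50.1, 77.2 and 83.2). Macrophages lay above mesenchymal cells (log2 fold change 1.65 ± 0.14 SE, adjusted p = 2.60e-11) and above neutrophils (log2 fold change 1.42 ± 0.14 SE, adjusted p = 1.32e-09), which with 14.4, 14.2 and 21.4 CPM had the lowest mean level, and neutrophils and mesenchymal cells were not separated (log2 fold change 0.23 ± 0.14 SE, adjusted p = 0.137). That last value took either sign with the settings: neutrophils were lower with library totals (log2 fold change -0.72 ± 0.15 SE, adjusted p = 9.09e-05) and higher with doublets kept (0.51, adjusted p = 5.10e-04) or without wild-type replicate 2 (0.41, adjusted p = 0.0304). Erythrocytes, at 17.2 CPM, were close to neutrophils in level (16.7 CPM), but the TMM fit called them lower (log2 fold change -0.93 ± 0.20 SE, adjusted p = 1.81e-04, erythrocytes minus neutrophils). Endothelial cells, first in level, were not separated from macrophages or conventional dendritic cells.

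Gsdmd encodes gasdermin D, the pore-forming substrate shared by both routes. Its order resembled that of Casp4, with 63.7, 55.4 and 44.4 CPM in macrophages, 54.7, 61.0 and 37.7 in conventional dendritic cells and 32.6, 28.1 and 25.7 in neutrophils. Neither of the latter was separated from macrophages in the fit (log2 fold change -0.03 ± 0.14 SE, adjusted p = 0.863, macrophages minus neutrophils), although with library totals macrophages exceeded neutrophils (log2 fold change 0.91 ± 0.15 SE, adjusted p = 3.80e-06). Mesenchymal cells, at 18.0, 21.6 and 9.05 CPM, lay below macrophages (log2 fold change 1.81 ± 0.14 SE, adjusted p = 1.05e-11) and neutrophils (log2 fold change 1.84 ± 0.15 SE, adjusted p = 7.40e-12). Gsdme, whose product can turn apoptosis into a lytic death, had another pattern. It was at 51.7, 39.4 and 44.3 CPM in neutrophils and at 5.43, 4.33 and 8.31 in macrophages, with no overlap between neutrophils and any other type. Neutrophils differed from all 9 other types (log2 fold change -3.90 ± 0.19 SE, adjusted p = 1.12e-15 for macrophages minus neutrophils). The fit also placed macrophages below mesenchymal cells (log2 fold change -0.73 ± 0.19 SE, adjusted p = 0.00108, not called without wild-type replicate 1), and free RNA held Gsdme at 18.7, 8.33 and 15.4 CPM. At the limit that Nlrp3 set, it could bring at most 0.766, 0.421 and 0.554 CPM to mesenchymal cells, which held 9.13, 8.12 and 12.2. No such limit from Nlrp3 exists for macrophages, which express it, and their Gsdme lay below the free RNA in each library.

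Ninj1, the membrane rupture gene, was highest in macrophages at 341, 383 and 263 CPM and next in neutrophils at 113, 252 and 109. No library of another type exceeded 100.2 CPM. Macrophages lay above mesenchymal cells (log2 fold change 3.29 ± 0.21 SE, adjusted p = 1.43e-13), and so did neutrophils (log2 fold change 3.14 ± 0.21 SE, adjusted p = 2.49e-13), while the 2 myeloid types were separated with library totals (log2 fold change 1.10 ± 0.19 SE, adjusted p = 9.31e-06) and not with TMM (log2 fold change 0.16 ± 0.20 SE, adjusted p = 0.50). The TMM value was called without wild-type replicate 2 (0.56, adjusted p = 0.00450) and with finer clustering at Leiden resolution 2.0 (0.77, adjusted p = 0.00228). Free RNA of the same libraries held Ninj1 at 161, 189 and 115 CPM, Gsdmd at 43.2, 42.0 and 24.3 and Casp4 at 32.6, 34.2 and 24.1, so that only macrophages exceeded it in each library for Ninj1. For the genes not yet given it held Nek7 at 25.2, 26.6 and 42.9 CPM, P2rx7 at 9.61, 14.4 and 11.2, Panx1 at 7.95, 11.6 and 7.93 and Casp8 at 45.5, 47.6 and 58.2. Subtracting the free RNA profile at 5% of the UMIs changed no call or direction in the 71 results compared under that setting. If free RNA keeps 1 ratio of its genes, the Gsdme level of macrophages limits it only to at most 29.0%, 52.0% and 54.1% of their UMIs in wild-type replicates 1, 2 and 3. The 5% subtracted lies below these limits and so does not cover all the free RNA that macrophages could hold. At these limits free RNA could bring at most 27.2, 90.3 and 89.4 CPM of Nlrp3 to macrophages, which held 103, 112 and 205. For Txnip it could bring at most 39.0, 79.1 and 68.4 CPM, where macrophages held 107, 92.9 and 122.

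Because cell types differ in number and in RNA content, the cells that hold most of a transcript in the tissue need not be those with the highest level. Neutrophils held 61.0% ± 13.2 (SD, n = 3) of all Nlrp3 UMIs and macrophages 25.0% ± 6.18, although they made up 15.7% and 23.7% of the UMIs of kept cells. These shares count UMIs as found in the cells, with any free RNA among them. Macrophages held 59.6% ± 4.71 of Ninj1, 57.1% ± 8.44 of P2rx7, 48.2% ± 3.59 of Casp4, 42.6% ± 2.69 of Gsdmd and 41.0% ± 3.12 of Casp8. For Gsdme (48.6% ± 12.5) and Txnip (37.6% ± 5.58) neutrophils held the largest part. Mesenchymal cells, with 32.6% of all UMIs, held 49.6% ± 11.2 of Panx1 and 41.2% ± 8.61 of Nek7. Most of Nek7 and Panx1 was therefore outside the cells that held most of Nlrp3.

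**Figure D2:**
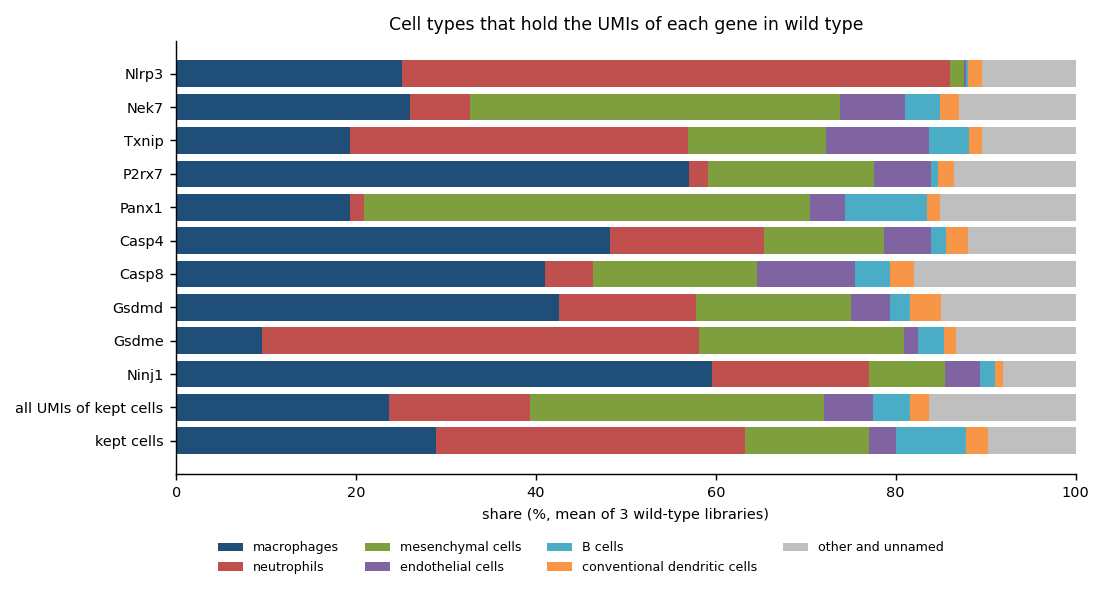
Share of the UMIs of each gene (x axis, %, mean of 3 wild-type libraries) held by each cell type (colours), with the shares of all UMIs and of all kept cells as the lowest bars. Nlrp3 is mostly neutrophil (61.0%), Ninj1 mostly macrophage (59.6%) and Panx1 most often mesenchymal (49.6%).

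Within macrophages and neutrophils the genes separated further. The macrophages were divided into proinflammatory macrophages (PIM, marked by Ly6c2, Ccr2 and Plac8), anti-inflammatory macrophages (AIM, marked by C1qa, Mrc1 and Folr2) and osteoclast-like cells. Nlrp3 was 184, 235 and 445 CPM in PIM, 72.1, 81.9 and 105 in AIM and 11.5, 16.5 and 12.1 in osteoclast-like cells, 3 ranges that did not overlap. Casp4 followed the same order, at 93.3, 94.2 and 87.1, then 70.1, 59.6 and 46.4, then 42.6, 40.1 and 35.1 CPM. Ninj1 did not, since AIM held 541, 540.0 and 416 CPM, PIM 219, 309.8 and 192 and osteoclast-like cells 140.0, 157 and 96.8. Gsdmd was highest in osteoclast-like cells, at 92.2, 88.0 and 62.6 CPM, and its range there overlapped that of PIM (69.2, 51.5 and 46.9). P2rx7 was 31.3 ± 4.89 CPM in AIM, 25.4 ± 7.66 in PIM and 9.07 ± 3.89 in osteoclast-like cells. No test was run between subsets, and these values are a description.

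Among neutrophils, mature cells (marked by Cxcr2, Il1r2 and Csf3r) had the highest levels of Nlrp3, Ninj1 and Txnip, but not of Gsdme. Nlrp3 was 1886, 3156 and 2799 CPM in mature neutrophils, 66.7, 68.2 and 54.0 in granule-rich immature neutrophils and 12.2, 52.4 and 11.8 in neutrophil precursors. Ninj1 showed the same gap, 640.5, 696 and 576 CPM in mature cells against 32.5, 38.8 and 25.5 and 18.6, 23.1 and 14.3. For Txnip the mature cells held 1055, 945 and 623 CPM, the granule-rich immature cells 298 ± 71.6 and the precursors 87.2, 83.0 and 67.4. Mature cells held few UMIs, 1158542 in 1035 cells of wild-type replicate 1 against 6813459 in 510 precursors. Over the wild-type libraries, 4514 mature cells, 2158 granule-rich immature cells and 1142 precursors held 5047, 2322 and 1152 Txnip UMIs. For Ninj1 these counts were 3731, 250 and 263, and for Nlrp3 15998, 501 and 302. The Txnip gap was thus one of CPM and not of UMIs per cell, unlike the other 2. Gsdme was not a gene of mature cells, with 33.7 ± 14.0 CPM there, 49.0 ± 14.5 in granule-rich immature cells and 40.7 ± 5.49 in precursors. Casp4 in mature neutrophils ranged widely, 63.0, 89.7 and 230.3 CPM, and replicate 3 was the highest. Mature cells made up 21.2%, 55.2% and 30.9% of the neutrophils of wild-type replicates 1, 2 and 3, so the neutrophil levels of Nlrp3 (274, 1035 and 446 CPM) were highest in the library with the largest mature share and lowest in that with the smallest. Part of the neutrophils was given no subset name, and this part differed between libraries. Mature cells, granule-rich immature cells and precursors were 21.2%, 20.1% and 10.4% of the neutrophils in wild-type replicate 1. In knockout replicate 1 they were 50.2%, 16.9% and 13.6%. How the cells without a subset name bear on the mature share was not tested. In the mesenchymal subsets, mean Nlrp3 ran from 5.23 CPM in matrix fibroblasts to 17.3 in chondrocyte-like cells, whose libraries spread from 4.25 to 41.4 CPM. Panx1 was highest in fibroblast progenitors at 30.2 ± 11.7 CPM, and Casp4 was 23.6 ± 7.54 CPM there against 2.72 ± 0.879 in tenocyte-like cells. Nek7 means ran from 14.9 to 16.3 CPM over the neutrophil subsets and from 36.1 to 47.5 over the macrophage subsets, Casp8 means from 12.5 to 21.7 and from 78.7 to 89.6, and Panx1 means from 0.489 to 1.99 and from 8.77 to 9.60.

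**Figure D3:**
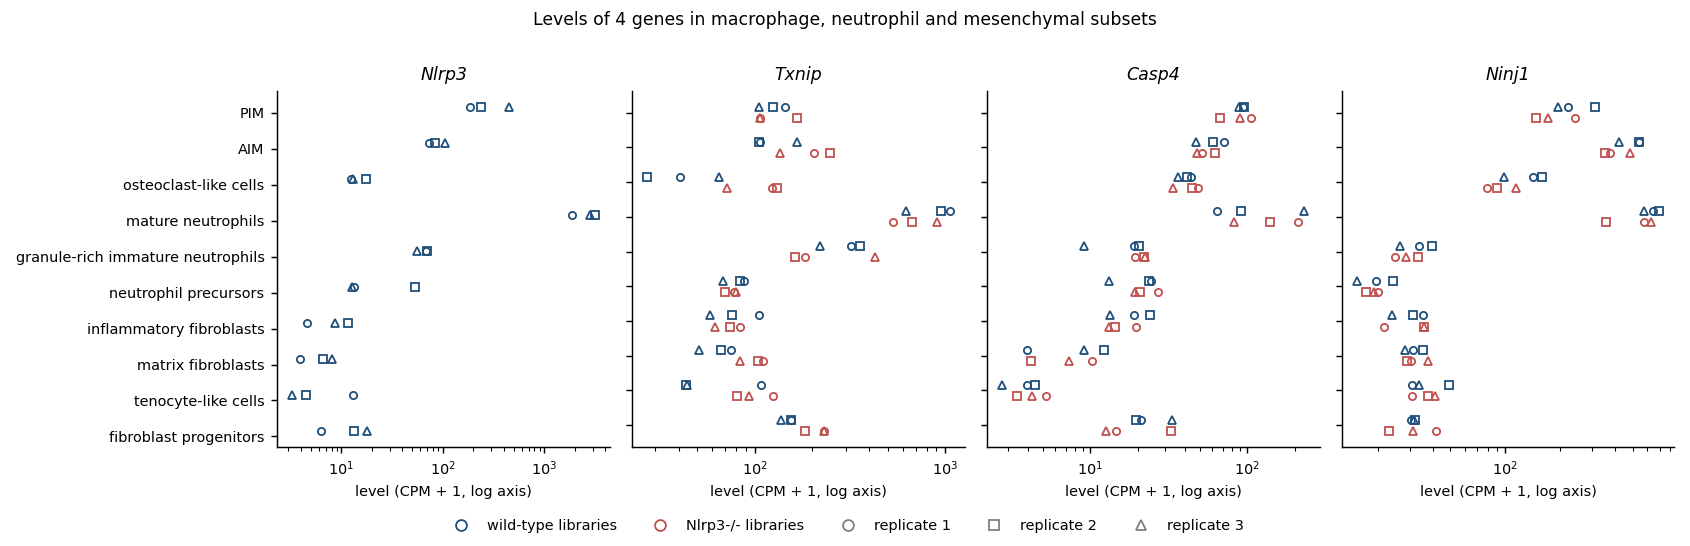
Levels of Nlrp3, Txnip, Casp4 and Ninj1 (x axis, CPM + 1, log axis) in subsets of macrophages, neutrophils and mesenchymal cells (y axis); each symbol is 1 library, blue for wild type and red for Nlrp3-/-, and Nlrp3 is drawn for wild type only. Mature neutrophils hold the highest Nlrp3 (mean 2614 CPM in wild type) and AIM and mature neutrophils the highest Ninj1 (means 499 and 638 CPM).

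The genes whose pattern across the 10 wild-type types was most like that of each of the 10 genes were listed by Pearson's r of mean log2 (CPM + 1) among 9310 genes. These correlations describe 10 types that share 3 libraries, and no test was applied. For Nlrp3 they were Lilra6 (r = 0.99), Clec5a and Igsf6, for Txnip Ttc7b (r = 0.94), Maml1 and Notch1, and for Nek7 Irf2bpl (r = 0.98), Snapc1 and Rnf103. P2rx7 was most like Nhlrc3 (r = 0.91), Rap2b and Ocel1, and Panx1 like Trpc4ap (r = 0.96), Fam120b and Slc7a6. Of the caspases, Casp4 was closest to Card19 (r = 0.97), Sat1 and Actr2, and Casp8 to Ifi47 (r = 0.94), Stat2 and Eif4g3. For the membrane proteins these were Irak4 (r = 0.97), Sowahc and Edem1 for Gsdmd, Chac1 (r = 0.92), Chil1 and Asprv1 for Gsdme and Tfe3 (r = 0.89), Csf3 and Atp6v1e1 for Ninj1. Among the 10 genes themselves, Casp4 and Gsdmd were alike (r = 0.91), as were Nek7 and Panx1 (r = 0.85), while Nlrp3 and Nek7 were not (r = -0.29).

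Around the 10 genes, 79 further genes of the pathway were counted, of which 66 could be tested between the main types. Macrophages exceeded mesenchymal cells in 43 and lay below them in 10, neutrophils exceeded mesenchymal cells in 46 and lay below in 12, and macrophages lay above neutrophils in 14 and below in 29. Over all genes the shares called higher and lower were 31.3% and 40.2%, 36.8% and 45.6%, and 33.9% and 34.9% for the same 3 pairs. With library totals the last pair of counts became 38 and 17, and that of neutrophils against mesenchymal cells 31 and 24. Among the other inflammasome sensors, 6 of 7 were higher in macrophages than in mesenchymal cells, among them Mefv (log2 fold change 6.28), Nlrc4 (5.77) and Aim2 (5.45), and all 7 were higher in neutrophils. Nlrp12 was lower in macrophages than in neutrophils (log2 fold change -6.52). The other 6 sensors were not called between these types with TMM and were called higher in macrophages with library totals. The adaptor gene Pycard and Casp1 were higher in macrophages than in mesenchymal cells (3.34 and 2.82) and than in neutrophils (1.27 and 0.76).

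The cytokines that pyroptotic cells release divided between the types. Il1b and Il1a were higher in neutrophils than in macrophages (log2 fold change -2.60 and -3.08, macrophages minus neutrophils) and in both than in mesenchymal cells. Il18 was higher in macrophages than in neutrophils (1.88), and Il33, an alarmin of stromal cells, was higher in mesenchymal cells than in macrophages (-6.05). The neutrophil serine proteases Elane, Prtn3 and Ctsg, which can cut gasdermins, were all lower in macrophages than in neutrophils (-6.66, -4.39 and -4.28). Of the genes that act with P2X7, the potassium channel Kcnn4 and the ATP receptor P2rx4 were higher in macrophages than in neutrophils (4.12 and 3.42), whereas the ATP receptor P2rx1 and the ectonucleotidase Entpd1 were lower (-4.74 and -2.22). Of the guanylate-binding and immunity-related GTPases that expose bacterial lipopolysaccharide to caspase-11, counted with the interferon regulators Irf1 and Irf2, 6 of 8 were higher in macrophages than in mesenchymal cells, including Gbp5 (2.16) and Irgm1 (1.69). Every gene named here for macrophages and neutrophils was called in the same direction with library totals.

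Deletion of Nlrp3 was visible in every library. Nlrp3 was at 93.6, 165 and 135 CPM over all cells of wild-type replicates 1, 2 and 3, from 35129 UMIs, and at 0 UMIs in each knockout library. A count of 0 allows up to 3 UMIs in each library, a limit that covers counting error only, and against the mean of these limits in CPM the level was at least 3442-fold lower over all cells, at least 883-fold lower in macrophages and at least 1581-fold lower in neutrophils. The libraries labelled Nlrp4 and Nlrp5 knockout were at 0 like the first.

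The other 9 genes were compared between genotypes within 10 cell types. None of 82 tests passed the adjusted threshold (edgeR, Benjamini-Hochberg over all genes of a type), and 16 had an unadjusted p under 0.05. Unadjusted p-values under 0.05 were also frequent among all genes, at 2527 of 12912 in macrophages, 1513 of 11026 in neutrophils and 1840 of 14790 in mesenchymal cells. In these 3 types 2, 3 and 1 of the 9 genes had one. Among all genes, the share that passed the adjusted threshold was 0.288% in B cells, 1.57% in conventional dendritic cells, 0.298% in endothelial cells, 9.57% in erythrocytes, 0.41% in macrophages, 0.122% in mesenchymal cells, 0.122% in mural cells, 0.39% in neutrophils, 0.23% in plasmacytoid dendritic cells and 0.954% in T and NK cells. Over the sum of all cells of a library, 0 of 9 passed in edgeR or in DESeq2, against 0.162% of all genes called in edgeR. An unadjusted p under 0.05 in edgeR was found for 2 of the 9 and for 2024 of 17302 genes. In such sums fewer cells of a type and less RNA per cell cannot be told apart. Since a p that misses the threshold does not show that the genotypes are alike, the levels are given with their spread.

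**Figure D4:**
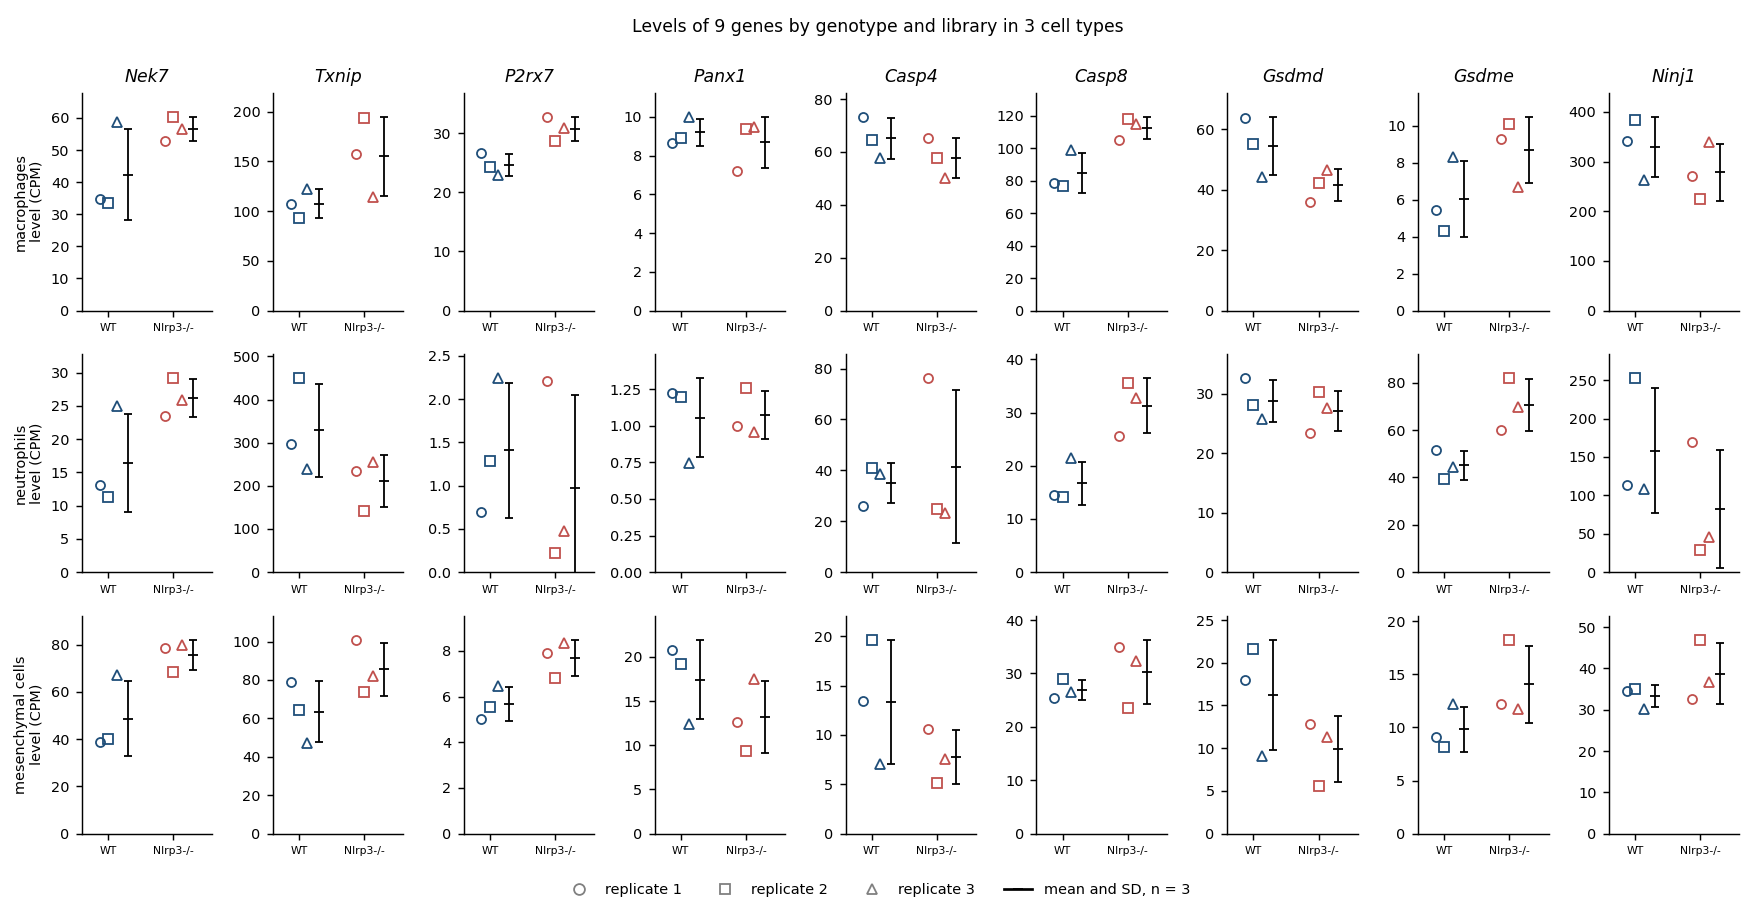
Levels (y axis, CPM, linear from 0, 1 scale per panel) of the 9 genes other than Nlrp3 in macrophages, neutrophils and mesenchymal cells of wild-type (blue) and Nlrp3-/- (red) libraries; symbols are libraries and the black marks are mean and SD (n = 3). Casp8 in macrophages does not overlap between the genotypes (78.6, 76.6 and 98.8 against 105, 118 and 115 CPM), nor does P2rx7, and neither was called. Among all genes tested in macrophages, 25.7% do not overlap. In most panels the symbols overlap.

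Nek7, the NLRP3-binding kinase, was higher in the knockout in 10 of 10 types by its fitted value, with log2 fold changes from 0.28 to 1.02, none of which passed. In mesenchymal cells the knockout libraries held 78.4, 68.3 and 80.0 CPM against 38.8, 40.2 and 67.2 in the wild type (log2 fold change 0.56 ± 0.23 SE, adjusted p = 0.397). Endothelial cells held 70.5, 78.7 and 66.0 against 49.2, 40.0 and 54.6 CPM (log2 fold change 0.45 ± 0.13 SE, adjusted p = 0.147). In both types the groups did not overlap, and wild-type replicate 3 was the closest to the knockout. Macrophages overlapped, at 52.9, 60.3 and 56.7 against 34.7, 33.6 and 58.7 CPM, with wild-type replicate 3 inside the knockout range. The smallest adjusted p was in erythrocytes, where Nek7 was 24.0, 18.7 and 30.2 CPM in the knockout and 6.30, 10.5 and 15.5 in the wild type (log2 fold change 1.02 ± 0.35 SE, adjusted p = 0.0811).

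Casp8 was also higher in the knockout in 10 of 10 types by its fitted value, without a call, and its levels did not overlap in 6 of them. Among all genes and the same 10 types, 15.8% of tests had knockout levels wholly above the wild-type ones. In macrophages Casp8 was 105, 118 and 115 CPM in the knockout against 78.6, 76.6 and 98.8 in the wild type (log2 fold change 0.26 ± 0.10 SE, adjusted p = 0.223), and in conventional dendritic cells 87.6, 135 and 107 against 59.9, 52.3 and 80.5 (log2 fold change 0.60 ± 0.19 SE, adjusted p = 0.0926). Neutrophils held 25.6, 35.6 and 32.7 against 14.4, 14.2 and 21.4 CPM (log2 fold change 0.66 ± 0.17 SE, adjusted p = 0.212). In mesenchymal cells the ranges overlapped, 34.9, 23.6 and 32.4 against 25.3, 29 and 26.5 CPM. Of 5470 genes tested in all 10 types, 10.6% had fitted values above 0 in every type and 14.4% below 0, so 1 direction in all types was shared by 25.0% of genes. With library totals, which moved the median of all genes from 0.01 to 0.17 in macrophages and from 0.00 to 0.27 in neutrophils, Nek7 and Casp8 remained above 0 in 10 of 10 types each. As this shift was upward, library totals are no check of a count of values above 0, here or below.

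**Figure D5:**
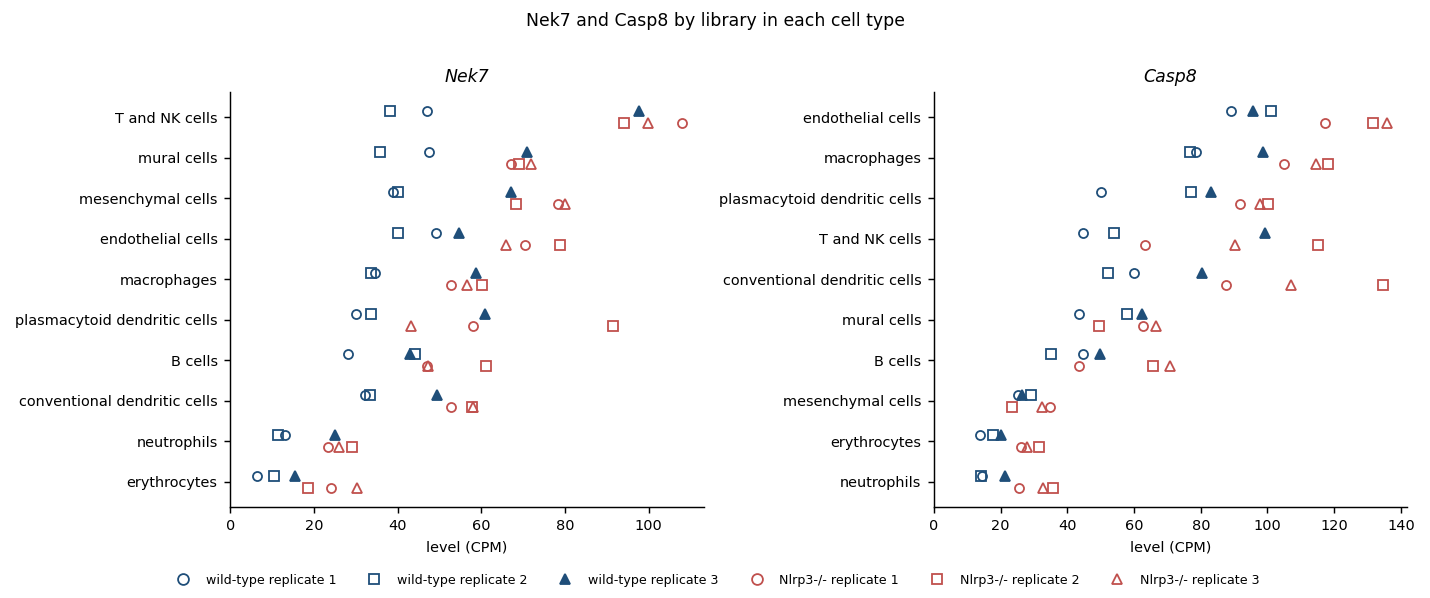
Levels of Nek7 and Casp8 (x axis, CPM, linear from 0) in each cell type (y axis); each symbol is 1 library, blue for wild type and red for Nlrp3-/-, and wild-type replicate 3 is the filled symbol. For Nek7, wild-type replicate 3 lies inside the knockout range in 5 of 10 types and replicates 1 and 2 in 0.

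For Txnip and the ATP genes the fitted values had both signs, and none passed. Those of Txnip were above 0 in 9 of 10 types, with TMM and with library totals, and below 0 in neutrophils. There Txnip was 234, 142 and 255 CPM in the knockout and 297, 449 and 239 in the wild type (log2 fold change -0.89 ± 0.35 SE, adjusted p = 0.332), groups that overlapped. Within osteoclast-like cells it was 123, 130.3 and 71.0 CPM in the knockout and 39.8, 26.3 and 64.3 in the wild type, without overlap (log2 fold change 1.16 ± 0.28 SE, adjusted p = 0.102). P2rx7 reached its smallest adjusted p in T and NK cells, with 32.9, 27.9 and 15.1 CPM in the knockout against 4.71, 9.82 and 6.89 (log2 fold change 1.58 ± 0.42 SE, adjusted p = 0.0929). In macrophages, its main source, P2rx7 was 32.7, 28.7 and 30.8 against 26.6, 24.3 and 22.9 CPM, every knockout library being above every wild-type one, with a log2 fold change of 0.16 ± 0.13 (SE) and an adjusted p of 0.512. Panx1 in mesenchymal cells was 12.7, 9.34 and 17.4 against 20.8, 19.1 and 12.4 CPM (log2 fold change -0.47 ± 0.28 SE, adjusted p = 0.464), and the 2 groups overlapped.

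For the caspase and the pore of the non-canonical route, the fitted values were below 0 in macrophages. Casp4 was 65.4, 57.8 and 50.2 CPM in knockout macrophages and 73.3, 64.6 and 57.8 in wild-type ones (log2 fold change -0.34 ± 0.16 SE, adjusted p = 0.272), and Gsdmd was 36.1, 42.1 and 46.6 against 63.7, 55.4 and 44.4 (log2 fold change -0.56 ± 0.17 SE, adjusted p = 0.161). Both pairs of groups overlapped. In PIM, Gsdmd did not overlap, at 36.1, 37.6 and 38.6 CPM in the knockout against 69.2, 51.5 and 46.9 (log2 fold change -0.70 ± 0.18 SE, adjusted p = 0.383). Casp4 in neutrophils, 76.1, 25 and 23.2 against 26, 40.8 and 38.5 CPM, had 1 high knockout library, replicate 1 (log2 fold change 0.04 ± 0.51 SE, adjusted p = 0.986), and without it the fitted value was -0.86. Over the types, Gsdmd was below 0 in 8 of 9 (7 of 9 with library totals), and Casp4 was above 0 in 5 of 8 and below in 3 (6 and 2 with library totals). Gsdme, by contrast, had a fitted value above 0 in 9 of 9 types with TMM, and also with library totals, which moved the median of all genes upward. In neutrophils, where it was concentrated, Gsdme was 60.1, 81.8 and 69.8 CPM in the knockout and 51.7, 39.4 and 44.3 in the wild type (log2 fold change 0.38 ± 0.16 SE, adjusted p = 0.351), with every knockout library above the wild-type ones.

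Ninj1 had a fitted value below 0 in 8 of 10 types under either scaling. Its smallest adjusted p was in conventional dendritic cells, at 22.5, 34.7 and 40.5 CPM in the knockout against 54.7, 65.7 and 41.1 in the wild type (log2 fold change -0.94 ± 0.25 SE, adjusted p = 0.0641), where the groups touched but did not overlap. In macrophages Ninj1 was 271, 224 and 339.5 against 341, 383 and 263 CPM (log2 fold change -0.41 ± 0.21 SE, adjusted p = 0.315), and within PIM 241, 147 and 170.0 against 219, 309.8 and 192 (log2 fold change -0.47 ± 0.28 SE, adjusted p = 0.545). Neutrophils were uneven, with 169.8, 29.1 and 46.1 CPM in knockout replicates 1, 2 and 3 and 113, 252 and 109 in the wild type (log2 fold change -1.14 ± 0.71 SE, adjusted p = 0.495). Mature cells made up 50.2%, 4.87% and 11.2% of the neutrophils of those knockout libraries and 21.2%, 55.2% and 30.9% of the wild-type ones, and the 6 neutrophil values of Ninj1 were ordered as these shares, apart from wild-type replicates 1 and 3. The part of the mature share in the neutrophil levels was not tested. Within mature neutrophils Ninj1 was 573, 356 and 625 CPM in the knockout and 640.5, 696 and 576 in the wild type (log2 fold change -0.30 ± 0.29 SE, adjusted p = 0.890), and with finer clustering (Leiden resolution 2.0) the value was -1.57, adjusted p = 0.00108.

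The clusters that made up the main types are given as shares pooled over the libraries of a genotype, with no test. The cluster led by Prg4 and Cxcl5 held 49.6% of wild-type mesenchymal cells and 22.4% of knockout ones, and the cluster led by Aspn and Postn held 46.6% and 66.9%. By library, inflammatory fibroblasts were 28.9%, 36.8% and 17.4% of wild-type mesenchymal cells and 14.1%, 3.59% and 17.0% of knockout ones, so that the lowest wild-type library was close to the highest knockout one. Among neutrophils, the largest wild-type cluster was led by Nlrp3, Cxcl2 and Il1b (43.7%, against 21.9% in the knockout) and the largest knockout cluster by Ngp and Retnlg (25.2%, against 15.9% in the wild type). Knockout cells of the former held no Nlrp3 UMIs. In single libraries, mature cells were 21.2%, 55.2% and 30.9% of wild-type neutrophils and 50.2%, 4.87% and 11.2% of knockout ones, ranges that overlapped through knockout replicate 1 alone. The share of that library was taken after 9461 of its 20507 cells had been set aside. For macrophages the same cluster, led by C1qa and Pf4, was the largest in both (23.4% and 30.4%). A cluster led by Ccr2 held 22.6% of wild-type macrophages and was not among the 3 largest of the knockout. One led by Arg1 held 22.8% of knockout macrophages and was not among the 3 largest of the wild type. Their shares in the other genotype are not given here. The third largest cluster held 19.0% in the knockout and 22.6% in the wild type, so these shares could lie just below those values. PIM were 44.4%, 34.7% and 44.9% of macrophages in the wild-type libraries and 27.5%, 36.8% and 24.2% in the knockout ones. How much these clusters contribute to the differences between genotypes was not tested.

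Over 10 subsets of macrophages, neutrophils and mesenchymal cells, 0 of 84 tests passed in edgeR. Types and subsets together gave 0 of 166, against 0.747% of 196444 tests of all genes. DESeq2 called 2 of them, against 2.14% of all genes, both in osteoclast-like cells, namely Txnip (log2 fold change 1.15, adjusted p = 0.00188) and Ninj1 (-0.71, adjusted p = 0.0390). Leaving out single libraries changed the number of calls. When wild-type replicate 3 was left out, 30 of 167 tests of the 9 genes passed (18.0%), against 8.15% of 201289 tests of all genes. Of these calls, Nek7 made 10, Casp8 and Gsdmd 5 each, Ninj1 4, Txnip 3, P2rx7 2 and Casp4 1. In macrophages the values without this library were 0.52, adjusted p = 0.00855 for Nek7, 0.33, adjusted p = 0.0305 for Casp8 and -0.72, adjusted p = 0.0107 for Gsdmd, and in T and NK cells that of Nek7 was 1.02, adjusted p = 0.0117. Leaving out wild-type replicate 1 or 2, or knockout replicate 2 or 3, gave 0 calls, and without knockout replicate 1 there were 2, against 0.773% of all genes, both of Ninj1 (log2 fold change -1.34 in erythrocytes and -2.39 in neutrophils). Wild-type replicate 3 lay within the knockout range in 52.0% of pairs of gene and type over all genes, against 35.6% and 34.8% for replicates 1 and 2. No label sets this library apart, and what does so was not tested.

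Whether the effect of the genotype itself differed between macrophages, neutrophils and mesenchymal cells was tested as an interaction. None of 27 tests of the 9 genes passed in edgeR or in DESeq2, and 0.013% (macrophages minus neutrophils), 0.00651% (macrophages minus mesenchymal cells) and 0.332% (neutrophils minus mesenchymal cells) of all genes passed in edgeR. The largest difference among these genes was that of Ninj1 between neutrophils and mesenchymal cells (-1.58 ± 0.65 SE on the log2 scale, adjusted p = 0.291). Of the 79 further pathway genes, 4 were called between genotypes in any type, all of them in erythrocytes, where 32 of the 79 were tested, 9.57% of all genes were called and the smallest library held 45 cells. They were the neutrophil serine proteases Ctsg (log2 fold change 2.92 ± 0.48, SE, adjusted p = 0.00413) and Prtn3 (2.35 ± 0.50, adjusted p = 0.0134), the arrestin-domain gene Arrdc3, a relative of Txnip (1.85 ± 0.32, adjusted p = 0.00465), and the transcription factor gene Nfkb1 (-0.77 ± 0.21, adjusted p = 0.0378). Ctsg and Prtn3 are also markers of neutrophil precursors, and the part of other cells in this difference was not tested.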

How the data were processed

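Matrices of raw UMI counts, 1 per library, had been made and deposited by the authors from Chromium 3′ single-cell libraries, with Cell Ranger 2.1.1 and mm10 named in the submitters' processing notes. They are counts per gene and barcode without normalization. Barcodes were called as cells at 500 UMIs, 200 genes and at most 10% mitochondrial UMIs, with a test against free RNA (false discovery rate 0.01), and the barcodes with the highest Scrublet scores (0.8% per 1000 cells) were removed as doublets. Cells were clustered with scanpy 1.11.5 and leidenalg 0.10.2 (2000 variable genes, 30 components, resolution 1.0) and named from fixed marker lists, with thresholds set after the clusters were seen. Clusters drawn above 75% from 1 library were set aside. Counts were summed per library and type and tested with edgeR 4.0.16 (quasi-likelihood, TMM, filterByExpr, Benjamini-Hochberg over all genes, 0.05), with the library as a block between types and without a block between genotypes. Standard errors were obtained as the log2 fold change divided by the square root of F. The edgeR fits were checked on simulated data for the genotype in the 3 main types and for macrophages against neutrophils. With a simulated 2-fold genotype effect, the mesenchymal fit called 14% of the changed genes, the neutrophil fit 28% and the macrophage fit 58%. At 1.5-fold these shares were 0%, 2% and 38%, and at 4-fold 78%, 84% and 94%. The fit of macrophages against neutrophils recovered 44% at 1.5-fold and 74% at 2-fold. A genotype effect of 2-fold or less could thus often be missed.

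The 10 genes, the pathway lists and the marker lists were chosen with earlier results of these data known. Values were described for each of the 10 genes. The genes of most similar pattern were the 3 with the highest Pearson's r among genes reaching 20 CPM in any type. Pathway genes were named as those called between genotypes, or as examples of a role called between cell types. Alternatives included DESeq2 1.42.0, other scalings, filters and clusterings, and each library left out in turn. Replicate numbers come from the sample titles. The values of 1 further pathway gene are not reported here.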

Additional observations from a re-analysis of the deposited data

How the results depend on the processing

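The 25 calls of the 10 genes between macrophages, neutrophils and mesenchymal cells became 23 to 27 when 1 library was left out. Between genotypes, edgeR called 0 of 166 tests, against 0.747% of all genes. The count was 6 of 180 without the filter on low counts (3.33%, against 2.1% of all genes). It was 2 with DESeq2 (2.14% of all genes) and 0 to 30 with 1 library left out (0.311% to 8.15% of all genes). There were 3 calls with library totals (Casp8, Nek7 and Gsdme in neutrophil precursors), 1 with Leiden resolution 2.0 and 1 with doublets kept. For these last settings, and for the interaction counts that follow, the share over all genes is not given here. The interaction count was 1 with Leiden resolution 2.0 and 0 to 2 with 1 library left out. With doublets kept, macrophages held 41.9% of Casp4, 35.7% of Casp8, 37.7% of Gsdmd and 52.3% of Ninj1 UMIs. The causes were not tested.

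Signs turned as follows. Casp4 in neutrophils between genotypes was -0.25 with the replicate block, -0.12 with the set-aside clusters kept, -0.21 with Leiden resolution 2.0, -0.0023 with doublets kept and -0.86 to 0.35 with 1 library left out. For macrophages minus neutrophils, Casp4 was 0.0705 without the filter, 0.89 with library totals, 0.0128 at 1000 UMIs, 0.54 with Leiden resolution 2.0, 0.0366 with doublets kept and -0.27 to 0.16 with 1 library left out, and Gsdmd was 0.0848, 0.91, 0.0954 and 0.10 under the same settings other than the UMI minimum and -0.0300 to 0.0531 with 1 library left out. Casp8 for neutrophils minus mesenchymal cells was -0.72 with library totals. P2rx7 for that pair was 0.14 with doublets kept, and between genotypes in neutrophils it was 0.12 with the set-aside clusters kept. Panx1 in neutrophils was 0.0345 with library totals and 0.20 with Leiden resolution 2.0, and Txnip over all cells was 0.0487 with library totals. With 1 library left out, Gsdme over all cells ran from -0.0053 to 0.38, Ninj1 in mesenchymal cells from -0.0271 to 0.29 and Ninj1 for macrophages minus neutrophils from -0.0144 to 0.56.

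No pairing by replicate number was seen. Libraries of the same number correlated at -0.57 to 0.026 in their deviations from the group means, and no library correlated best with its own number. With 3 libraries a group, such correlations cannot exclude that libraries of the same number were handled together. With the replicate block, 1 of 166 tests was called (Nek7 in erythrocytes, 1.16), against 1.07% of all genes. Genotype is confounded with sex, 3 libraries a group limit the precision, and low genes such as Panx1 and P2rx7 in neutrophils rest on few UMIs.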

Other observations

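Mast cells and basophils were too few to enter the comparisons, with 36, 16 and 42 cells in wild-type replicates 1, 2 and 3. Nlrp3 stood at 606.7, 339.8 and 749.7 CPM in them, values that overlapped those of wild-type neutrophils, and at 0 in the 3 knockout libraries, which held 18, 47 and 9 such cells. These values were chosen after they were seen, rest on 16 to 42 cells a library and were not tested.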
